A study of Mus musculus with 17 samples.

Results

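miR-1900 is a mouse microRNA (miRNA), and its level in serum was set out here mouse by mouse, as 1 assay among 357 miRNA assays of a real-time PCR panel. The assay was taken by its name, and it had a value in all 17 mice. It was selected on its Ct values in these same mice: in earlier results it stood out between AT-ATX mice without tumors and wild-type mice. Its levels in the groups are therefore a description, and no p-value is attached to them.

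Serum came from 7 transgenic AT-ATX mice with spontaneous tumors, 7 AT-ATX mice without tumors and 3 healthy wild-type FVB/N mice, the strain named for the wild-type animals. The series' design text calls the transgenic animals Autotaxin transgenic. Autotaxin, an enzyme secreted into blood, produces lysophosphatidic acid, a lipid that signals through cell-surface receptors. The promoter of the transgene, the strain of the transgenic mice, the kind of tumor and the ages are not given in the sources used here, and each sample is labelled as 1 mouse. Replicate numbers below follow the order of the samples. The label of tumor replicate 5 gives the number 88 and then an F with a question mark, where the other labels have a digit after the F.

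A miRNA is cut from a hairpin RNA and loaded onto an Argonaute protein, which it guides to messenger RNAs that pair with its seed, bases 2 to 8 from its 5′ end. Cells release miRNAs into blood, where they circulate in vesicles, on proteins and on lipoproteins. In serum, release by more cells and release of more RNA per cell cannot be told apart. The sequences below show what the assay is named for, with the seed in capitals in the mature RNA and the mature RNA in capitals in the hairpin, both from RefSeq (GRCm38.p6).
mmu-miR-1900: gGCCGCCCucucugguccuuca
Mir1900 hairpin: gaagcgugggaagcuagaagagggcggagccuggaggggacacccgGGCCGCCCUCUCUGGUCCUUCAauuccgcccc

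The hairpin lies on the minus strand at chr9:21032251-21032328, and the mature RNA at chr9:21032261-21032282. This is within the bounds of Icam5 (chr9:21032038-21039036, plus strand), 213 bases past the start of that gene and on its opposite strand. Icam5 encodes telencephalin, an adhesion molecule of forebrain neurons. The gene table used here gives gene bounds only, so exon or intron was not assigned. None of the other mature mouse miRNAs among the 1679 in the RefSeq table shared bases 2 to 8 with miR-1900, and 0 shared bases 2 to 7. By name, 260 of the 317 mouse assays of the panel matched that table. miR-1900 had a G and C content of 68.2%, against a median of 47.6% over the 260 matched assays, of which 8 were higher and 1 was equal. Its longest run of bases in common with another matched assay was 7.

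The deposited values are quantification cycles (Ct), which fall as template rises, by 1 cycle for each doubling under full PCR efficiency. miR-1900 reached its threshold at a Ct of 31.99, 30.54, 30.16, 31.29, 25.52, 29.07 and 26.16 in tumor replicates 1 to 7. In tumor-free replicates 1 to 7 its Ct was 24.66, 28.17, 25.26, 25.31, 28.42, 27.60 and 26.05. In the wild-type mice it was 28.43, 30.99 and 34.23. Every tumor-free mouse thus had a Ct below every wild-type mouse, but the closest pair, tumor-free replicate 5 and wild-type replicate 1, differed by only 0.0068 cycles, far less than the spread within either group. The tumor mice covered most of the range of both other groups.

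The panel mean of a serum was its average Ct over the 252 miRNA assays with a value in every mouse. The level of miR-1900 was this panel mean less the Ct of miR-1900, a log2 scale on which higher means more. It was -0.32, -0.41, -0.39, -1.03, 3.21, 0.68 and 1.79 in tumor replicates 1 to 7. In tumor-free replicates 1 to 7 it was 3.47, 2.33, 3.45, 3.99, 1.89, 1.95 and 3.18. In wild-type replicates 1 to 3 it was -1.43, -2.85 and -4.26. The tumor-free mice were highest, the tumor mice lay between and the wild-type mice were lowest. Tumor replicate 5 stood inside the range of the tumor-free mice, and the other 6 tumor mice were each lower than every tumor-free mouse.

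**Figure D1:**
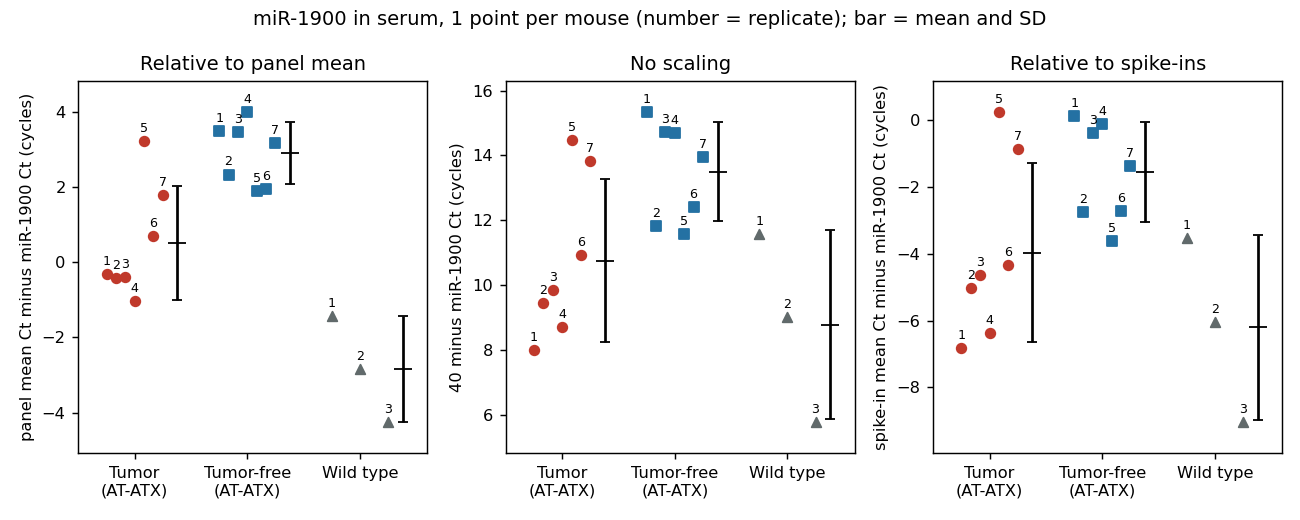
Each point is 1 mouse, numbered by replicate, with the mean and SD of its group (n = 7, 7 and 3) beside it; the vertical axes give miR-1900 in cycles on a log2 scale, against the panel mean, unscaled and against spike-ins. Against the panel mean the lowest tumor-free mouse (1.89) is above the highest wild-type mouse (-1.43), while unscaled and spike-in values of these groups touch.

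Relative to the panel mean, miR-1900 averaged 2.90 ± 0.83 (SD, n = 7) in tumor-free mice and -2.85 ± 1.41 (n = 3) in wild-type mice. The log2 difference was 5.74 (SE 0.87), or 53.5-fold under full PCR efficiency. All 7 tumor-free mice lay above all 3 wild-type mice, as was the case for 6.80% of the 338 tested assays. Tested assays were those with a value in 5 or more tumor, 5 or more tumor-free and 2 or more wild-type mice, and only mice with a value entered. The smallest gap between the groups was 3.32 cycles.

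In tumor mice the level averaged 0.51 ± 1.51 (SD, n = 7), against the same -2.85 ± 1.41 (n = 3) in wild-type mice. These differed by 3.35 on the log2 scale (SE 1.00), or 10.2-fold. All 7 tumor mice lay above all wild-type mice, as did 5.33% of the tested assays, with a gap of 0.40 cycles between the nearest mice. Tumor mice set against tumor-free mice gave a log2 difference of -2.39 (SE 0.65), 5.24-fold lower in tumor mice. The groups overlapped through tumor replicate 5. Each of the 14 mice was left out in turn, and only without this 1 was there no overlap, with a difference of -2.84. In this comparison 0.888% of the tested assays had all 7 tumor mice below all tumor-free mice. The share without tumor replicate 5 was not computed. The 3 comparisons share mice, so their values are not separate evidence.

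The transgenic animals carry numbers in their labels whose meaning is not stated, and 2 of these numbers occur with and without tumors. Under number 77 the 2 tumor mice stood at -0.41 and -0.39, and the tumor-free mouse at 2.33. Under number 85 the tumor mouse stood at -1.03, and the 2 tumor-free mice at 3.99 and 1.89. Within both numbers the tumor mice were thus lower than the tumor-free mice, by a log2 difference of -2.73 for number 77 and -3.97 for number 85.

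miR-1900 also changed its place among the assays. Ordered by Ct from the most abundant signal down, it was between 49 and 149 (median 119) among the detected miRNA assays of tumor mice. Its place was between 29 and 72 (median 52) in tumor-free mice, and 169, 195 and 261 in the wild-type mice. The number of detected miRNA assays was 312 to 356 per mouse. Assays differ in PCR efficiency, so a place in this order is not an amount of RNA.

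**Figure D2:**
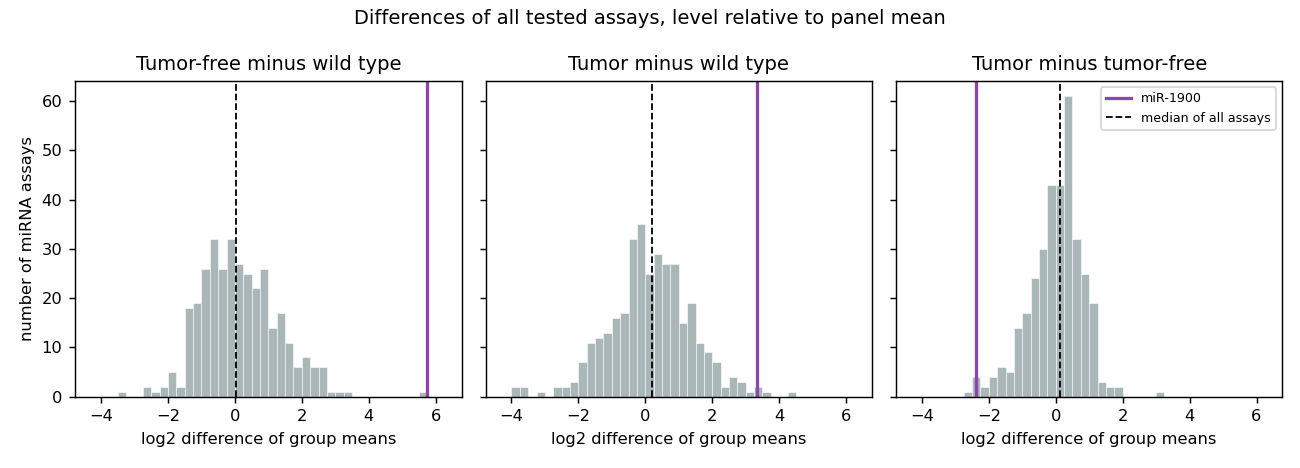
The histograms count the 338 tested miRNA assays by their log2 difference of group means, with a purple line at miR-1900 and a dashed line at the median assay. miR-1900 is at 5.74 and the median at 0.03 for tumor-free minus wild type, at 3.35 and 0.19 for tumor minus wild type, and at -2.39 and 0.14 for tumor minus tumor-free.

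For tumor-free minus wild-type mice the difference of miR-1900 was the highest of the 338 tested assays. The next 3 were miR-125b-2-3p at 3.42 (SE 1.21), miR-499-5p, a muscle miRNA encoded in a myosin gene, at 3.09 (SE 0.76), and miR-199b-5p at 2.94 (SE 1.39). For tumor minus wild-type mice miR-1900 came 4th, after miR-125b-2-3p at 4.32 (SE 1.32), miR-489-3p at 3.68 (SE 1.16) and miR-2137 at 3.48 (SE 1.34). miR-1949 at 3.20, miR-34c-5p at 2.98 and miR-376a-3p at 2.81 followed it. For tumor minus tumor-free mice it was 2nd from the lowest, after miR-455-3p at -2.67 (SE 0.65) and before the rat assays miR-347 at -2.31 and miR-215 at -2.30 and the mouse assay miR-215-5p at -2.26. In both comparisons of tumor mice the neighbours in order were within 1 SE of miR-1900.

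The choice of scaling moved the size of the differences. Without scaling, as 40 minus Ct, miR-1900 averaged 10.75 ± 2.50 (SD, n = 7) in tumor mice, 13.50 ± 1.54 (n = 7) in tumor-free mice and 8.78 ± 2.91 (n = 3) in wild-type mice. Its difference was 4.72 (SE 1.78) for tumor-free minus wild type, 1.97 (SE 1.93) for tumor minus wild type and -2.75 (SE 1.11) for tumor minus tumor-free. Only 2 of 7 tumor mice, replicates 5 and 7, then lay above all wild-type mice. The median assay was also displaced without scaling, to -1.07, -1.22 and -0.24 in the same order of comparisons, and miR-1900 stood 5.79, 3.19 and -2.51 from it.

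The control assay cel-miR-39-3p was not used for scaling. The 4 spike-in assays used (UniSp2, UniSp4, UniSp5 and UniSp6) measure RNA added to the samples and not made by the mice. Against their mean Ct, miR-1900 stood at -6.83, -5.01, -4.63, -6.39, 0.24, -4.34 and -0.86 in tumor replicates 1 to 7. It stood at 0.13, -2.76, -0.38, -0.11, -3.62, -2.73 and -1.37 in tumor-free replicates 1 to 7, and at -3.54, -6.03 and -9.05 in the wild-type mice. The differences were 4.66 (SE 1.69) for tumor-free minus wild type, 2.23 (SE 1.89) for tumor minus wild type and -2.43 (SE 1.16) for tumor minus tumor-free. Here 6 of 7 tumor-free mice were above all wild-type mice, and tumor-free replicate 5 was 0.079 cycles below wild-type replicate 1. The tumor and wild-type groups overlapped widely.

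Apart from quantile normalization, the scalings subtract 1 value per mouse and so move all assays of that mouse alike. The place of miR-1900 among the assays, and its distance from the median assay, are therefore nearly fixed whichever is used. Under quantile normalization of the 252 shared assays, miR-1900 had the highest difference for tumor-free minus wild type, the 2nd highest for tumor minus wild type and the 2nd lowest for tumor minus tumor-free.

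For the sample measures behind these scalings, group means were tested by exact permutation, two-sided, which cannot give a p below 0.00833 for 7 against 3 mice or below 0.000583 for 7 against 7. The panel mean Ct was 29.8 ± 1.18 (SD, n = 7) in tumor mice, 29.4 ± 0.83 (n = 7) in tumor-free mice and 28.4 ± 1.50 (n = 3) in wild-type mice. The spike-in mean Ct was 25.27 ± 0.37, 24.95 ± 0.26 and 25.01 ± 0.15 in the same groups. The hemolysis index, obtained by subtracting the Ct of miR-451a of red blood cells from that of miR-23a-3p, was 3.97 ± 1.97, 4.38 ± 0.84 and 5.61 ± 2.07. None of the 9 exact permutation tests passed after Benjamini-Hochberg adjustment (smallest adjusted p = 0.45), and 0 had an unadjusted p under 0.05. Wild-type sera had the lowest mean panel Ct, while their miR-1900 Ct was the highest on average.

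Within groups, the Ct of miR-1900 went with that of the panel as a whole. Over the 14 transgenic mice with group means taken off, its Ct rose with the panel mean Ct (r = 0.91, permutation p = 2e-05, adjusted p = 6e-05 over 3 relations; rho = 0.96, permutation p = 1e-05, adjusted p = 3e-05). The p of rho is the smallest that 100000 reorderings allow. Without the 2 mice farthest from the median panel mean, tumor replicates 1 and 7, r was 0.89. Among the 7 tumor mice alone r was 0.91, and among the 7 tumor-free mice it was 0.93. A positive r is usual for an assay against the mean of its own panel: 249 of the other 251 shared assays had an r above 0, with a median of 0.80, and 34 had a higher r than miR-1900. The p-value, which is against an r of 0, thus does not set miR-1900 apart from other assays.

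The slope was steep. miR-1900 changed by 1.86 cycles for each cycle of the panel mean within groups, against a median slope of 0.98 over the 252 assays, and 7 assays had a steeper slope. Sera with a lower panel mean Ct thus had a higher miR-1900 level relative to the panel as well. The parts of RNA amount in the serum, yield of extraction and efficiency of the reactions in this slope were not tested. With the panel mean Ct as a covariate over all 17 mice, chosen after the data were seen, unscaled miR-1900 differed by 6.64 for tumor-free minus wild type, 4.56 for tumor minus wild type and -2.07 for tumor minus tumor-free.

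**Figure D3:**
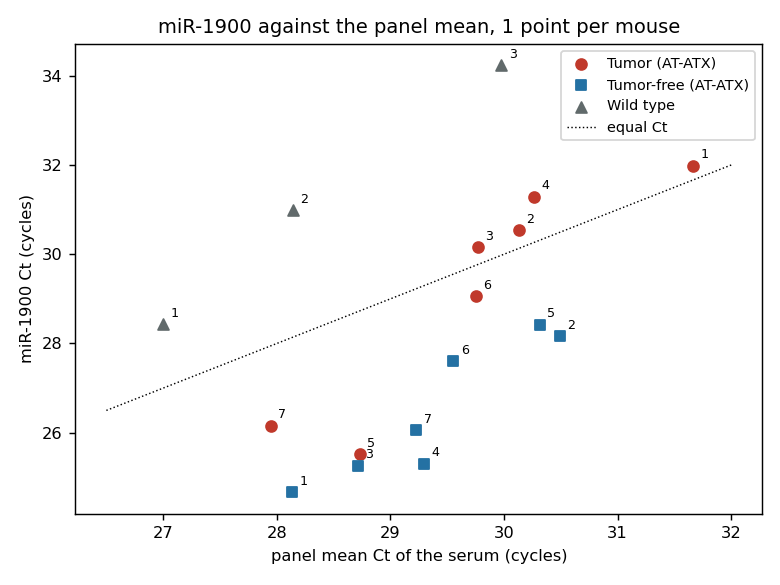
Each point is 1 mouse, numbered by replicate, with the panel mean Ct of its serum on the horizontal axis and the Ct of miR-1900 on the vertical axis, both in cycles; the dotted line marks equal Ct. The 3 wild-type mice are above the line, the 7 tumor-free mice below it, and within the transgenic groups the points climb by 1.86 cycles per cycle of the panel mean.

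The other relations did not pass. Over the same 14 mice, the level of miR-1900 against the hemolysis index gave r = -0.23 (permutation p = 0.543, also 0.543 when adjusted) and rho = -0.21 (permutation p = 0.504, also 0.504 when adjusted). Without tumor replicates 3 and 4, the farthest on the index, r was 0.33. Its Ct against the spike-in mean Ct gave r = -0.22 (permutation p = 0.509, 0.543 when adjusted) and rho = -0.23 (permutation p = 0.473, 0.504 when adjusted), and r was 0.022 without tumor replicates 2 and 5.

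Levels of cell type markers were set beside those of miR-1900. The 3 hepatocyte markers (miR-122-5p, miR-192-5p and miR-802-5p) averaged between 2.33 and 3.89 in tumor mice, between 4.04 and 5.17 in tumor-free mice and between 4.31 and 5.73 in wild-type mice. Their mean was thus lower in all tumor mice than in all tumor-free mice, as miR-1900 was in 6 of 7 tumor mice, while tumor-free and wild-type mice overlapped in these markers but not in miR-1900. Taken singly, miR-122-5p and miR-192-5p each overlapped between tumor and tumor-free mice. With group means taken off, the mean of the 3 had r = 0.61 with miR-1900 over 17 mice. The members differed, with r of 0.70 for miR-122-5p, 0.45 for miR-802-5p and -0.028 for miR-192-5p. Of 4 listed red blood cell markers, 3 were found on the panel by name (miR-451a, miR-144-3p and miR-16-5p). miR-486-5p was not found under that name. The mean of the 3 ranged from 7.18 to 10.64 in tumor mice, 7.77 to 9.74 in tumor-free mice and 8.60 to 10.76 in wild-type mice, with r = -0.31. The 3 platelet markers ranged from 4.0 to 6.11, 4.38 to 5.09 and 3.80 to 5.14 in the same groups, with r = -0.30. The lymphocyte, muscle and brain lists had 1, 2 and 1 members detected in all mice, with r of 0.34, 0.22 and -0.24. The part of any of these cells in the level of miR-1900 was not tested.

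The miRNA assays most like miR-1900 were sought by Pearson's r of the level relative to the panel mean over the 17 mice, among the 252 assays detected in all. The 5 highest were miR-199b-5p (r = 0.75), the rat assay miR-338-3p (0.71), miR-29c-5p (0.70), miR-199a-5p (0.67) and miR-146a-5p (0.66), an miRNA induced in inflammation. These values include the differences between groups, and all levels share the same panel mean. miR-199b-5p averaged -1.17 ± 2.29 (SD, n = 7) in tumor mice, 0.51 ± 1.42 (n = 7) in tumor-free mice and -2.43 ± 2.22 (n = 3) in wild-type mice, the same order as miR-1900 but with overlap between all groups. miR-146a-5p averaged 1.83 ± 0.95, 1.94 ± 1.14 and -0.38 ± 0.41 in the same groups, with both transgenic groups above all wild-type mice but little between them.

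With group means taken off, the 5 assays most like miR-1900 over the 17 mice were others for the most part. They were miR-28a-3p (r = 0.86), miR-151-5p (0.84), the rat assay miR-28-3p (0.76), miR-10a-5p (0.72) and again miR-199b-5p (0.72). miR-28a-3p followed miR-1900 in tumor mice (r = 0.95, n = 7) and in tumor-free mice (r = 0.80, n = 7). Yet its level was -2.48 ± 1.03 (SD, n = 7) in tumor mice, -2.14 ± 0.49 (n = 7) in tumor-free mice and -2.04 ± 1.32 (n = 3) in wild-type mice, so it varied with miR-1900 from mouse to mouse without the differences between groups. miR-151-5p (-1.12 ± 1.53, -1.01 ± 0.73 and -0.61 ± 1.00) did the same. On the same scale, with group means taken off, the added spike-ins UniSp2 and UniSp4 had r of -0.83 and -0.82 with miR-1900. An r of this size was thus not limited to miRNAs of the mice. The part of the panel mean Ct in these values was not tested.

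The control assays were chosen here after their values were seen. In level relative to the panel mean, 2 small nuclear RNAs had a higher r with miR-1900 over the 17 mice than any miRNA assay. These were RNU5G (r = 0.81) and RNU1A1 (r = 0.79), assays of the U5 and U1 RNAs of the spliceosome, which removes introns in the nucleus. RNU1A1 stood at 1.67, 0.80, 1.28, 2.46, 0.37, 3.71 and 6.71 in tumor replicates 1 to 7. It stood at 4.43, 2.79, 5.02, 6.32, 3.43, 5.03 and 5.12 in tumor-free replicates 1 to 7, and at -3.85, -2.50 and -2.56 in wild-type mice. Both transgenic groups were above all wild-type mice, and the tumor mice were lower than the tumor-free mice on average.

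The differences of RNU1A1 were 7.56 (SE 0.63) for tumor-free minus wild type, 5.40 (SE 0.94) for tumor minus wild type and -2.17 (SE 0.94) for tumor minus tumor-free. Without scaling they were 6.54, 4.02 and -2.53, again with both transgenic groups apart from wild-type mice. RNU5G differed by 4.60 (SE 0.60), 2.37 (SE 0.45) and -2.23 (SE 0.68) relative to the panel mean, and by 3.58, 0.99 and -2.59 without scaling, where its groups overlapped. The third such assay, U6 snRNA, differed by 0.64, 1.38 and 0.74 with SEs of 3.29, 3.31 and 1.33, within its spread. By the decimals of the values, from which plates were inferred, RNU1A1 and RNU5G were taken to be on the plate without miR-1900.

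Relative to the panel mean, much of the likeness to U1 and U5 lay between groups. With group means taken off, r over the 17 mice was 0.31 for RNU5G and 0.19 for RNU1A1. Among tumor-free mice it was 0.64 and 0.68 (n = 7), and among tumor mice 0.29 and 0.17 (n = 7). This depended on the scaling. Against the spike-ins, r with group means taken off was 0.78 for RNU5G and 0.65 for RNU1A1, and 0.97 for miR-28a-3p. Values of this size were common among miRNA assays under this scaling, such as 0.93 for miR-192-5p, 0.89 for miR-24-3p and 0.69 for miR-16-5p. Some were low, such as 0.037 for miR-205-5p. The r against the spike-ins thus did not set the small nuclear RNAs apart from other assays. With group means kept, r against the spike-ins was 0.86 for RNU5G and 0.80 for RNU1A1. Then miR-199b-5p (0.83) and the rat assay miR-338-3p (0.81) stood above RNU1A1. Tumor replicate 5 had the highest miR-1900 level and the lowest RNU1A1 level of the tumor mice, and U6 snRNA stood highest of the tumor mice there, at 3.27. Without that mouse, left out after its values were seen, r over the other 6 tumor mice was 0.84 for RNU5G and 0.88 for RNU1A1. Among the miRNA assays named as most like miR-1900, r rose for some, by less. These were picked for a high r in the same mice, which left less room to rise. Without that mouse r was 0.94 for miR-28a-3p and 0.88 for miR-199b-5p. For miR-29c-5p it went to 0.88, against 0.52 with all 7, and for miR-199a-5p to 0.82, against 0.56. Smaller rises were seen for miR-199b-5p, miR-146a-5p and the rat assay miR-338-3p. For others r fell, to 0.52 for miR-151-5p, against 0.84, and to 0.59 for the rat assay miR-28-3p, against 0.72. It fell slightly for miR-10a-5p and miR-28a-3p. For U6 snRNA r turned to -0.57, against 0.58 with all 7.

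**Figure D4:**
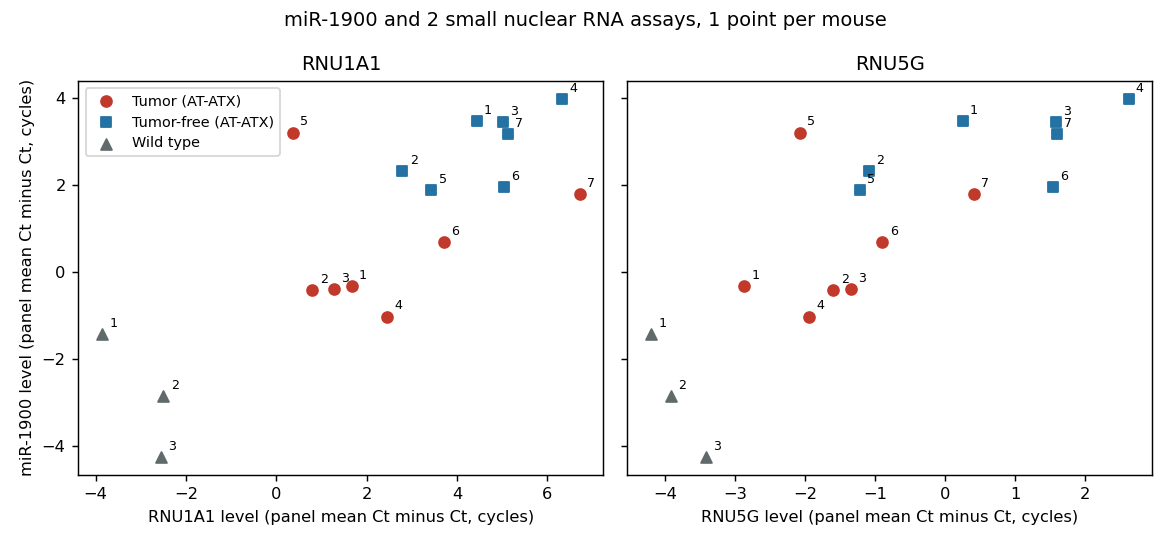
Each point is 1 mouse, numbered by replicate, with the level of RNU1A1 (left) or RNU5G (right) on the horizontal axis and that of miR-1900 on the vertical axis, both as panel mean Ct minus Ct in cycles. Wild-type mice are at the lower left and tumor-free mice at the upper right, and tumor replicate 5, at 3.21 for miR-1900 and 0.37 for RNU1A1, is off the course of the other tumor mice.

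Mouse assays with registry numbers near that of miR-1900 (1800 to 2200) were miRNAs named late in the registry. Of 11 such assays 10 were tested. The 9 other than miR-1900 had a median difference of 0.75 for tumor-free minus wild type, against 0.03 over all tested assays, from -1.22 (miR-1961) to 2.72 (miR-1949), and 0 of the 9 had all tumor-free mice above all wild-type mice, against 6.80% of all tested assays. For tumor minus wild type their median was 0.95, against 0.19 over all, and 2 of 9, miR-2137 and miR-1949, had all tumor mice above all wild-type mice, against 5.33% of all tested assays. For miR-1949 only 2 wild-type mice had a value. Counts over 9 assays are too few to be read against these shares. For tumor minus tumor-free the median of the 9 was 0.24, against 0.14 over all, with miR-1839-3p the lowest at -1.51 and miR-2137 the highest at 1.77.

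Base composition and plate were also set beside the difference. The 9 other tested assays with at least the G and C content of miR-1900 differed by -1.05 (miR-1247-5p) to 1.72 (miR-139-3p) for tumor-free minus wild type. For tumor minus wild type they differed by -1.89 (miR-1247-5p) to 3.48 (miR-2137), which was higher than miR-1900 at 3.35. For tumor minus tumor-free they differed by -1.38 (miR-1895) to 1.77 (miR-2137). Across 251 tested assays with a sequence, G and C content had r = 0.096 with the difference for tumor-free minus wild type. Without miR-1900 itself this r was 0.061. For the same comparison, the 112 tested assays taken to be on the plate of miR-1900 had a median of -0.11 without miR-1900 itself. The 226 of the other plate had a median of 0.10. Scaled to the shared assays of its own plate, miR-1900 differed by 5.73 for tumor-free minus wild type.

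Mouse to mouse, miR-1900 was among the more variable assays. Its SD was 1.51 in tumor mice, 0.83 in tumor-free mice and 1.41 in wild-type mice, against median SDs over the 338 tested assays of 1.01, 0.64 and 0.90. In the same groups 56, 91 and 78 assays had a larger SD.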

How the data were processed

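Serum RNA of 17 mice was measured by SYBR Green PCR over 40 cycles on 2 ready-made panel plates, from 50 µL of serum, per the labels' protocols. The deposited values, scores on a cycle scale (Ct), are not normalized, per the file's name. The sources used here do not say how the authors set thresholds, calibrated plates or limited detection. Empty cells were taken as not detected. Depth has no meaning for PCR cycles, and the number of mice limits the precision.

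The table holds 357 miRNA and 8 control assays. In 13 mice the values end in 1 of 2 decimal patterns, which divides the assays into 245 and 120, taken as the plates. The other 4 mice (tumor replicate 1 and tumor-free replicates 4, 5 and 7) had a single pattern. A separate run of these was not tested. No 2 mice had the same values (smallest SD of their difference 0.665 cycles).

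miR-1900 and all lists were chosen with earlier results of these data known. Levels relative to the panel mean were compared as group means with SEs. Sample measures were compared by exact permutation, and relations by 100000 reorderings within groups, with Benjamini-Hochberg adjustment over 9 tests and 3 relations. The assays named were, by rule, the 5 most like miR-1900 in each way, the 3 next to it in each order of differences, and the lists. Alternatives were the panel median, raw Ct, spike-ins, 5 reference miRNAs, the mean of the same plate, quantile normalization, a limit of Ct 35 and mice left out. Code was tested on simulated data. Python 3.11.15 with numpy 2.4.6, pandas 2.3.3, scipy 1.17.1 and matplotlib 3.10.9 was used.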

Additional observations from a re-analysis of the deposited data

How the results depend on the processing

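The difference of miR-1900 for tumor-free minus wild type moved by more than the SD within groups of 1.01, to 4.72 with raw Ct and 4.66 with spike-ins. Under the 8 other settings it lay between 5.49 and 6.64, and it ranged from 5.01 to 6.44 without each mouse in turn, with the groups apart in all 10 of these. For tumor minus wild type it lay between 1.97 and 4.56 under 10 settings and from 2.61 to 4.05 without each mouse, and the groups overlapped with raw Ct, spike-ins and reference miRNAs. For tumor minus tumor-free it lay between -3.35 and -2.07 under 11 settings and from -2.84 to -2.14 without each mouse. Without the 4 mice with 1 decimal ending the differences were 5.65, 3.49 and -2.16. The relation of miR-1900 Ct to the panel mean Ct passed in all 14 fits without 1 mouse (r from 0.89 to 0.94). The relation to the hemolysis index turned to r = 0.33 without the 2 farthest mice and ranged from -0.51 to 0.030 without each mouse, above 0 only without tumor replicate 4. That to the spike-in mean turned to 0.022 without the 2 farthest mice and ranged from -0.38 to 0.068, above 0 without tumor replicate 5. The spike-in mean Ct of tumor-free minus wild-type mice ranged from -0.14 to 0.025, above 0 without wild-type replicate 3. The cause of these turns was not tested. No paired analysis was possible because the labels give no replicate numbers and do not say what the animal numbers mean; within 77 and 85, the only ones with and without tumors, tumor minus tumor-free was -3.35 on average. With 3 wild-type mice, whose miR-1900 levels span a range of 2.83 cycles, the size of each difference from wild type is known only roughly.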
